A study of Mus musculus with 22 samples.

Results

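The genes examined here present peptides to T cells: 7 genes of the MHC class I pathway (H2-K1, H2-D1, B2m, Tap1, Tap2, Tapbp and Nlrc5) and 3 genes of the class II pathway (H2-Ab1, Cd74 and Ciita). They were chosen by name from 21938 annotated protein-coding genes, with earlier results of these data known. The peaks counted for each gene were those in its gene body or within 10 kb of it. The cells were KL cells (Lin−cKit+Sca1− myeloid progenitors) from bone marrow, sorted by flow cytometry from male C57BL/6 mice carrying scl-Cre-ERT and Bcorfl/y, 20 weeks after tamoxifen at 1 mg on each of 5 days, given at 3 to 6 months of age. Tamoxifen activates the Cre, which is driven by regulatory sequence of the stem cell gene Scl, and the recombined allele lacks exons 9 and 10 of Bcor (BcorΔE9-10), so the deletion is meant to arise in haematopoietic stem cells and to be inherited by the progenitors sorted. Chromatin immunoprecipitation sequencing (ChIP-seq) of H3K27ac, histone H3 acetylated at lysine 27, was available for 3 BcorΔE9-10 libraries, from 3 mice per the methods of the study. The other 19 of the 22 samples, among them all BcorWT libraries, were not analysed here, so the question addressed is how the class I and class II genes compare within BcorΔE9-10 cells, and nothing below compares genotypes.

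MHC class I molecules are carried by nearly all nucleated cells and show peptides from the cell's own proteins to CD8 T cells. A heavy chain pairs with β2-microglobulin and is loaded in the endoplasmic reticulum with peptides pumped in by the TAP transporter. MHC class II molecules are largely restricted to professional antigen-presenting cells such as dendritic cells, B cells and macrophages, and show peptides from ingested proteins to CD4 T cells. Each pathway has its own transactivator, NLRC5 for class I and CIITA for class II. Neither binds DNA by itself, and both are recruited to promoters by a complex of RFX, CREB and NF-Y proteins bound at the neighbouring elements called X and Y.

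The promoters of the class I genes are shown because their elements are the sites at which this machinery and the inflammatory factors NF-κB and IRF are known to work. RefSeq (GRCm38.p6) gave the 250 bases before the start of 5 of the 10 genes (H2-K1, H2-D1, B2m, Tap1 and Tapbp), and H2-Ab1, Tap2, Nlrc5, Ciita and Cd74 had no entry in the table used. Capitals mark matches on either strand to the IRF core GAANNGAAA, the CCAAT box (CCAAT, or ATTGG when it lies on the other strand), the cyclic AMP response element core TGACG, and the NF-κB consensus, which has 10 bases. Each sequence is written 5′ to 3′ on the strand of its gene, which is minus for H2-K1 (chr17:34000348-34000597) and plus for H2-D1 (chr17:35262844-35263093), B2m (chr2:122147437-122147686), Tap1 (chr17:34187306-34187555) and Tapbp (chr17:33919228-33919477).
H2-K1: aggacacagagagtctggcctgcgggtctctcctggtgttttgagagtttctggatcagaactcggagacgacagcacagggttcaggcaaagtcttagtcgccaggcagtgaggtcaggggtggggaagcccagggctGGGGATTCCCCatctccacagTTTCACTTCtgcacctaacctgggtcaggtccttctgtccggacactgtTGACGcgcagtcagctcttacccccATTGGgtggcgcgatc
H2-D1: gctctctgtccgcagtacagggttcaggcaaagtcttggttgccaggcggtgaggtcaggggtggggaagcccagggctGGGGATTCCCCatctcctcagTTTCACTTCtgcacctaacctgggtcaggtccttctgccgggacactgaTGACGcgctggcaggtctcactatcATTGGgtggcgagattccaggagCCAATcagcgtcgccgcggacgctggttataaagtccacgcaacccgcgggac
B2m: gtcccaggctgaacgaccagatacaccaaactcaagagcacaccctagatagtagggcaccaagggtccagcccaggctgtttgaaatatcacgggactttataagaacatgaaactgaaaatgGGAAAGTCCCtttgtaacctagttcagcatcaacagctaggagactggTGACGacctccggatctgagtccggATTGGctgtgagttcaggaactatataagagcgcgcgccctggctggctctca
Tap1: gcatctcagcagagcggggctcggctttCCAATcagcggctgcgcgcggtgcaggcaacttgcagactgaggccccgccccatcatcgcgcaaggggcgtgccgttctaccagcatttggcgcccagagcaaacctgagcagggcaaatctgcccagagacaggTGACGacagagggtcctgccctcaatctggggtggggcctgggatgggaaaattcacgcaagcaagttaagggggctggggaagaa
Tapbp: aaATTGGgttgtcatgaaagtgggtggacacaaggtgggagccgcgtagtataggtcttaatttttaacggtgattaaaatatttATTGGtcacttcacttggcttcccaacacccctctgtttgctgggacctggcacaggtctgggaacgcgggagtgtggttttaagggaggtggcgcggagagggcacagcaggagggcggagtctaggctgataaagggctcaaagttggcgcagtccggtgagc

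Both heavy chain promoters carried NF-κB, IRF, TGACG and a reversed CCAAT box in this order. H2-D1 also had a forward CCAAT box downstream of them, 53 to 49 bases before its start. The printed H2-K1 sequence ends too soon after its reversed CCAAT box to reach the matching position. Whether H2-K1 has a forward box there was not tested. In H2-K1 the IRF core began 90 bases before the start and in H2-D1 it began 150 bases before it, the RefSeq start of H2-D1 lying further downstream of the elements. That start is 364 bp downstream of the principal GENCODE TSS from which the H2-D1 peaks are measured below. The aligned parts of these promoters were identical at 166 of 190 bases (87.4%), against 49.8% to 58.8% for the other pairs of the 5. The B2m promoter held an NF-κB match, TGACG and a reversed CCAAT box but no match to the IRF core as written, GAANNGAAA. Shortly before its NF-κB match it reads gaaactgaaa, where GAA and GAAA lie further apart than this pattern allows. Wider spacings were not searched, so an IRF element in B2m is not excluded. Tap1 held TGACG and a CCAAT box, and Tapbp held 2 reversed CCAAT boxes only. Of 32851 promoters of this length in the table, 6.31% held an IRF core, 33.8% a CCAAT box, 17.8% TGACG and 7.25% the NF-κB consensus.

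In H2-K1, H2-D1 and B2m, TGACG and the reversed CCAAT box were separated by exactly 20 bases, which the alternation of capitals and lower case above makes visible. This spacing was noticed in these sequences and then counted. It was present in 30 of the 32851 promoters (0.0913%), belonging to 26 gene symbols, and among them was 1 further class I gene, H2-M3, of the 8 other class I molecules found in the table. A match in these windows is a description of the letters and not a measured binding site.

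H3K27ac marks active promoters and enhancers. A TSS peak was counted for a gene when a peak lay no more than 2.5 kb from one of its annotated transcription start sites (TSSs), and its size is given as fold enrichment, a ratio that sets the fragments at the summit against the background which the peak caller estimated for that place, from a control that is not stated. Regions with coordinates are the union of overlapping peaks of the 3 libraries. The libraries held 23410, 25963 and 23758 peaks in replicates 1, 2 and 3. Their depth was estimated from the caller's values, not counted, at 18.0, 18.9 and 19.3 M reads. The weakest peak called had a fold enrichment of 1.94, 1.80 and 2.04, and no call was made below 8, 8 and 9 fragments, so a gene without a peak may still carry acetylation under that limit. Genes with a TSS peak had a median fold enrichment of 9.07, 9.26 and 10.7 in the 3 libraries. Replicates 1 to 3 name the libraries in the order of the labels.

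The class I genes had H3K27ac peaks at their start sites, while 2 of the 3 class II genes, Cd74 and Ciita, had none. Of the 7 class I genes, 7, 7 and 6 had a TSS peak in replicates 1, 2 and 3. Of the 3 class II genes, 1 did in each library, which was H2-Ab1 each time. Counted over all 3 libraries together, 6 of 7 class I genes and 1 of 3 class II genes had a TSS peak in each, where 43.9% of all protein-coding genes did. In at least 1 library, 8 of the 10 genes had a TSS peak, against 49.9% of all genes. A peak in the gene or within 10 kb of it was found in all 3 libraries for 8 of the 10, against 51.9%. Nlrc5 was among these 8 only through peaks beyond its far end, since in replicate 3 no peak lay in its body.

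**Figure D1:**
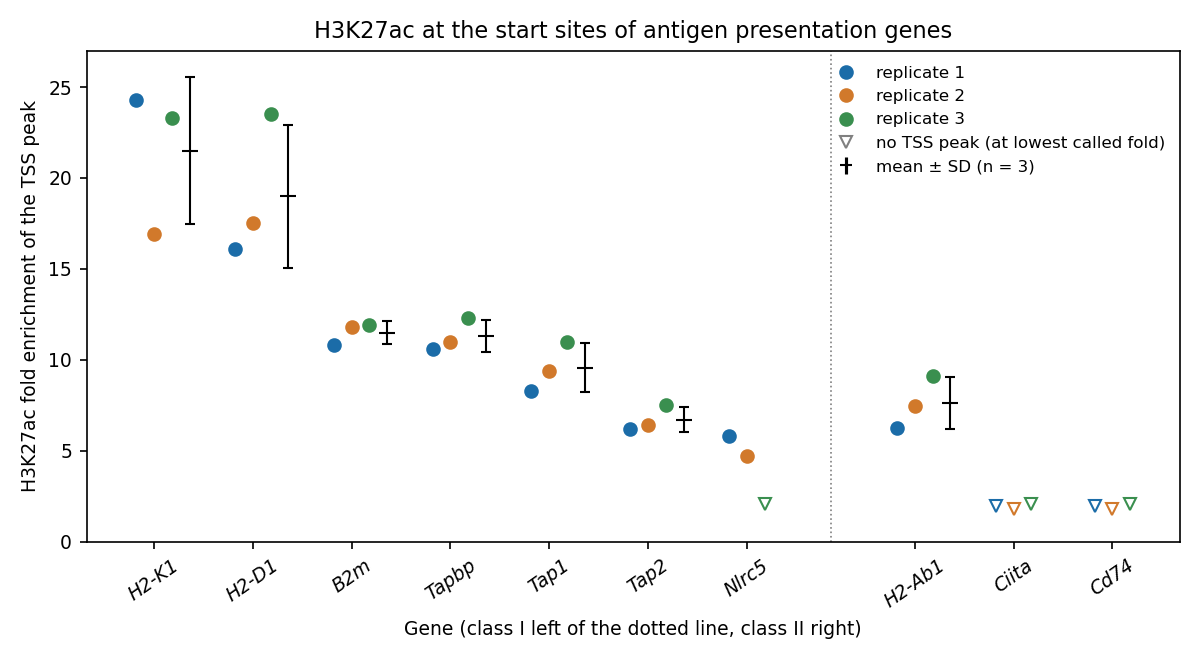
H3K27ac fold enrichment of the TSS peak (y axis, a ratio without unit) for the 7 class I genes and the 3 class II genes (x axis), with 1 point per library, an open triangle at the lowest called fold where a library had no TSS peak, and bars for the mean ± SD of 3 libraries. H2-K1 and H2-D1 reach 16.1 to 24.3, the other class I genes with a peak lie between 4.69 and 12.3, H2-Ab1 lies between 6.24 and 9.09, and Ciita and Cd74 have open triangles in all 3 libraries.

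The heavy chain genes had the highest fold enrichments of the 10. H2-K1, which encodes the classical heavy chain K, had a TSS peak with a fold enrichment of 24.3, 16.9 and 23.3 in replicates 1, 2 and 3 (21.5 ± 4.04, SD, n = 3). These values stood at the 95.6th, 85.9th and 92.4th percentile of all genes with a TSS peak in the same library. H2-D1, which encodes the classical heavy chain D, had values of 16.1, 17.5 and 23.5 (19 ± 3.93). The ranges of H2-K1 and H2-D1 overlapped, and H2-K1 was the higher in 1 of the 3 libraries, so their order was not set by these data.

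Each heavy chain gene had its strongest region downstream of the principal TSS. In H2-K1, the strongest region (chr17:33998883-34000304) ran from 43 to 1464 bp downstream of the TSS with its summit in exon 2, and a separate region (chr17:34000442-34000925) lay 95 to 578 bp upstream with fold enrichments of 16.4, 15.3 and 15.6. In H2-D1, the strongest region (chr17:35263047-35264274) ran from 317 to 1544 bp downstream of the principal TSS with its summit in intron 1. The RefSeq start of H2-D1, 364 bp downstream of the principal TSS, lay inside this strongest region. A region across the principal TSS (chr17:35262337-35262949) had lower values of 9.02, 6.33 and 10.9. Of the 250 promoter bases printed above, peaks covered 143, 128 and 156 in H2-K1 and 117, 136 and 142 in H2-D1.

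Heavy chain genes resemble each other in sequence, and a read that matches 2 genes equally cannot be assigned to either by its sequence. Such a read may be lost or counted at the wrong gene. Of the stretches of 75 bases that begin in the strongest H2-K1 region, 166 of 1422 (11.7%) had an exact copy elsewhere on the chromosomes. The share was 5.70% in the strongest H2-D1 region and 0% at the TSS regions of B2m, Tap1, Tap2, Tapbp, Nlrc5 and H2-Ab1. How far such copies moved the fold enrichment of H2-K1 and H2-D1 was not tested.

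B2m encodes β2-microglobulin, the light chain shared by class I molecules. Its TSS peak had fold enrichments of 10.8, 11.8 and 11.9 (11.5 ± 0.618), the smallest spread among the 7 genes with a TSS peak in all 3 libraries. The fragments at the summit numbered 51, 58 and 84, and the counting error alone gives a 95% interval of 8.10 to 14.1 for the fold enrichment in replicate 1. The strongest region (chr2:122147681-122148877) began 5 bp before the principal TSS and ended 1191 bp after it, with the summit in intron 1. Upstream, a region 228 to 1080 bp from the start had fold enrichments of 7.06, 6.92 and 9.83, and a further one 1394 to 1908 bp away had 5.13, 3.75 and 5.66. The gap between the strongest and the nearest upstream region fell on the promoter, of which peaks covered 22, 28 and 6 of the 250 bases shown.

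Tap1 and Tap2 encode the subunits that together form the peptide transporter. Tap1 had TSS fold enrichments of 8.31, 9.40 and 11.0 (9.57 ± 1.36), which stood between the 45.0th and the 51.5th percentile of genes with a TSS peak. That peak (chr17:34186036-34187336) lay 217 to 1517 bp upstream of the principal Tap1 TSS, inside the body of Psmb9, an immunoproteasome subunit gene read in the opposite direction whose own start lies within 2.5 kb. ChIP-seq has no strand, so the share of Tap1 and the share of Psmb9 in this acetylation cannot be told apart. Downstream of the Tap1 start a weaker region (chr17:34187740-34188587) had fold enrichments of 5.10, 5.91 and 7.96. When each peak was given only to the gene with the closest TSS, Tap1 kept this weaker region, which in replicate 2 also held the principal Psmb9 start and counted for both genes, so its share for each cannot be told apart either.

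Tap2 had TSS fold enrichments of 6.19, 6.43 and 7.49 (6.70 ± 0.692). They were lower than those of the Tap1 peak shared with Psmb9 in each library, but with the closest TSS only, where Tap1 had 5.10, 5.91 and 7.96, Tap2 was the higher in 2 of 3. Its region (chr17:34204495-34205884) began 968 bp downstream of the first annotated TSS, in intron 1 of the principal transcript. Another annotated Tap2 TSS lay inside this region, and no other protein-coding gene starts within 2.5 kb of it. A separate peak 4146 to 5741 bp before Tap2 belonged to Psmb8, another immunoproteasome gene, and had fold enrichments of 9.08, 8.18 and 10.4. In each library, the Tap1 and Psmb8 peaks were the 2 strongest in the stretch of the MHC plotted by distance from Tap1.

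Tapbp encodes tapasin, which bridges the transporter and empty class I molecules during loading. Its TSS fold enrichments were 10.6, 11.0 and 12.3 (11.3 ± 0.872). The region (chr17:33919084-33920549), which was 2 separate peaks in replicates 1 and 2, crossed the principal TSS, from 248 bp before it to 1217 bp after it. It covered 246, 250 and 250 of the 250 promoter bases, the fullest coverage of the 5 promoters shown. In replicates 1 and 2 the peak over the principal TSS and these bases had lower fold enrichments of 4.78 and 3.00. The values of 10.6 and 11.0 came from the other peak, which began 328 and 304 bp downstream of the principal TSS. The strongest peak within 10 kb of Tapbp, with fold enrichments of 19.4, 14.5 and 20.4, lay at the start of Daxx, a gene for a histone chaperone, and was not counted for Tapbp.

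Nlrc5, the class I transactivator gene, had the weakest TSS peak of the class I genes and was the only one of the 7 to lack it in a library. Its fold enrichment was 5.81 in replicate 1 and 4.69 in replicate 2, and no peak was called at its start in replicate 3. The peaks rested on 17 and 14 fragments, for which counting error gives 95% intervals of 9.90 to 27.2 and 7.65 to 23.5 fragments. The region (chr8:94434343-94434646) ran over the TSS into intron 1. Stronger peaks in its window, with fold enrichments of 8.53, 10.6 and 11.7, lay at the start of Cpne2 beyond the far end of the gene.

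**Figure D2:**
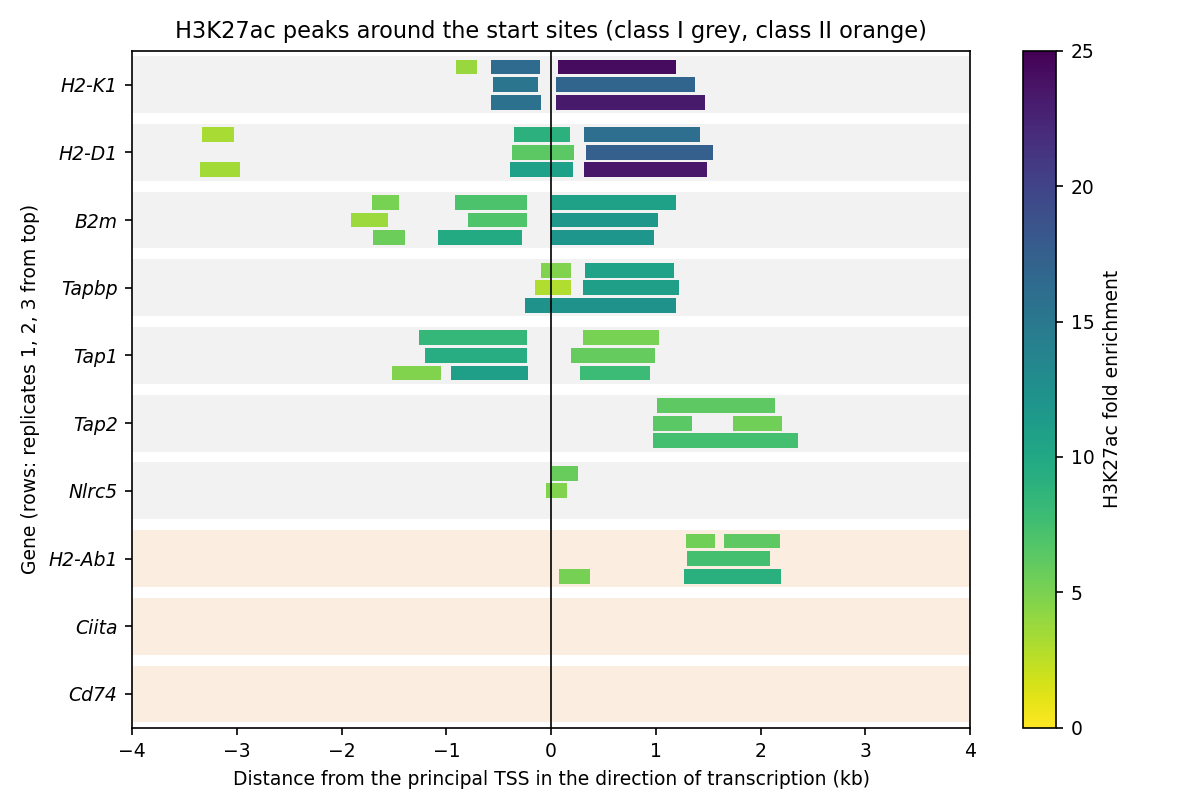
H3K27ac peaks of replicates 1, 2 and 3 (rows from top to bottom within each gene) by distance from the principal TSS in kb (x axis, in the direction of transcription), shaded by fold enrichment, for class I genes on grey and class II genes on orange. The peaks of H2-K1, H2-D1, B2m, Tapbp and Tap1 flank or cross the start, the short Nlrc5 peaks lie at it in 2 rows, those of Tap2 and H2-Ab1 lie about 1 kb or more downstream apart from 1 peak of H2-Ab1 in replicate 3, and Ciita and Cd74 are empty.

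Of the 3 class II genes, H2-Ab1 was the one with H3K27ac peaks. It encodes the β chain of the class II molecule A. The TSS fold enrichments were 6.24, 7.47 and 9.09 (7.60 ± 1.43), on 20, 25 and 36 fragments. The peak common to the 3 libraries (chr17:34264476-34265406) lay in intron 1, from 1267 to 2197 bp downstream of the principal TSS. Next to the TSS itself, from 75 to 368 bp downstream, a peak was called in replicate 3 only, with a fold enrichment of 5.21. With a TSS window of 1 kb, H2-Ab1 therefore had a TSS peak in 1 library, and 0 of the 3 class II genes had one in all 3 libraries.

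Cd74, which encodes the invariant chain that guards the class II groove, had no peak in its body or within 10 kb in any library, and the nearest peaks lay 28109, 28217 and 28029 bp from its principal TSS. Ciita, the class II transactivator gene, likewise had none, with the nearest peaks 54288, 54305 and 57122 bp from its principal TSS. Neither gene was reached by a TSS window of 5 kb. In a bulk library, acetylation in a small fraction of the cells and weak acetylation in all of them cannot be told apart, and this holds for H2-Ab1 as for genes under the calling limit.

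The 2 classes were compared within each library. The share of genes with a TSS peak was 100%, 100% and 85.7% for class I and 33.3% in each library for class II, a difference of 66.7, 66.7 and 52.4 percentage points (61.9 ± 8.25, SD, n = 3). The difference had the same sign in 3 of 3 libraries, and the two-sided exact sign-flip permutation test over libraries gave p = 0.25, which is the smallest p that 3 libraries allow. The median TSS fold enrichment of class I was 10.6, 11.0 and 11.9. The median class II gene had no TSS peak and was set at the lowest fold called. The ratio of class I to class II, 5.47, 6.11 and 5.86 (5.81 ± 0.326, exact sign-flip permutation p = 0.25, the smallest possible), rests on that placement. With the class II median at that floor no ratio below 1 was possible, so neither its direction nor this p tests a difference. The ratio became 11.2 with such genes at a fold of 1, 3.41 with geometric means and 2.41 without the 2 transactivator genes.

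H2-Ab1 overlapped the class I range. It lay above Tap2 in each of the 3 libraries, by 1.12-fold in the geometric mean, and below Tap1 in each by 1.27-fold. Both directions turned with the assignment of peaks. H2-Ab1 was above Tap1 in 3 of 3 libraries with the closest TSS only, and below Tap2 in 3 of 3 with a window of 5 kb, which gave the Psmb8 peak to Tap2. In the order of mean fold enrichment, H2-D1 exceeded B2m by 1.63-fold and Tapbp exceeded Tap1 by 1.19-fold, each in 3 of 3 libraries, with an exact sign-flip permutation p = 0.25 for each of these 4 pairs, the smallest that 3 libraries allow. B2m and Tapbp changed places between libraries, with B2m the higher in 2 of 3 (exact permutation p = 0.750). Nlrc5, with a peak in 2 libraries, was below Tap2 in both.

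The remaining genes of the 2 pathways were counted in the same way. These lists, and the lists further below, were chosen with earlier results of these data known, so their shares are descriptive only. Of the class I peptide supply and loading genes listed, 10 of 10 had a TSS peak in all 3 libraries, again beside 43.9% of all genes. Their median fold enrichments were 8.70, 11.7 and 13.4. The highest were Canx (18.9, 19.4 and 27.5) and Pdia3 (20.2, 15.8 and 22.7), which code for endoplasmic reticulum folding factors used in many cell functions, and Erap1 (19.8, 18.9 and 24.4), an aminopeptidase that trims peptides.

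Of 10 other class I molecules, 7 had a TSS peak in all 3 libraries, against 43.9% of all genes. H2-Q4 had the highest values (20.0, 14.8 and 18.1), followed by H2-M3 (11.9, 13.5 and 13.5), the gene that shared the element spacing of H2-K1, H2-D1 and B2m, and H2-Q6 (11.5, 7.11 and 10.9). H2-T24 had a TSS peak in 2 libraries (2.91 and 3.07 in replicates 1 and 3), as did Mr1 (4.39 and 3.53 in replicates 1 and 2), and H2-Q10 in none. Exact copies elsewhere were not counted for these 10 other molecules, so how far copies moved their values was not tested.

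Of 10 other class II genes found in the annotation as protein-coding, 3 had a TSS peak in all 3 libraries, 3 in some and 4 in none. The shares of all genes were 43.9% in all 3 libraries and 49.9% in at least 1, so the 3 of 10 lay below the first and the 6 of 10 with a peak in at least 1 library above the second, neither by many genes. H2-DMa, a chain of the peptide exchange factor DM, had fold enrichments of 12.5, 12.4 and 14.9, but its start lies within 2.5 kb of the start of Brd2, a broadly expressed gene for a reader of acetylated histones, and the share of each cannot be told apart. H2-Ob and H2-Oa, chains of the DM regulator DO, had 5.14, 3.55 and 6.94, and 3.82, 3.18 and 4.92. H2-Aa, which encodes the α chain that pairs with the product of H2-Ab1, had a TSS peak in replicates 1 and 3 (3.74 and 5.73). H2-DMb1 had one in the same replicates (4.60 and 4.37) and H2-DMb2 in replicates 2 and 3 (3.00 and 4.16). With these lists added to the 10 genes, the class I share still exceeded the class II share, by 46.4 percentage points, and the ratio of medians was 3.89.

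**Figure D3:**
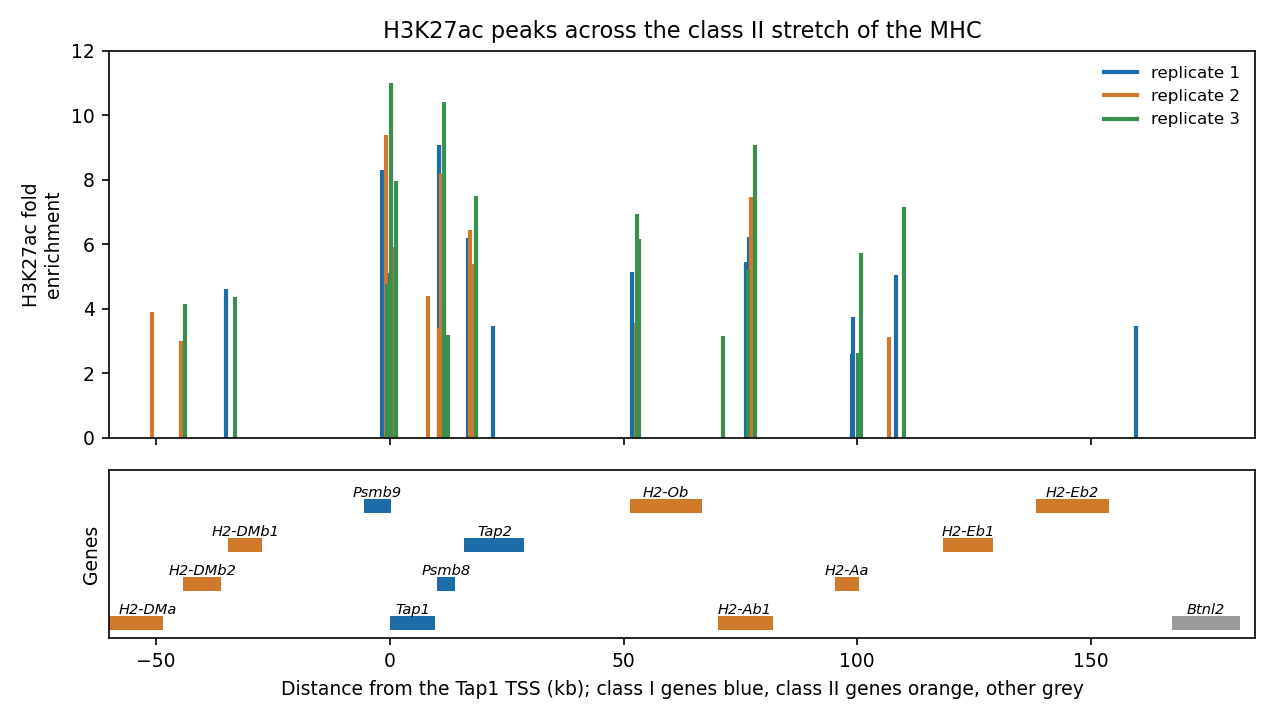
H3K27ac fold enrichment of each peak (y axis) by distance of its middle from the Tap1 TSS in kb (x axis), coloured by replicate and drawn side by side for legibility, above the protein-coding genes, with class I genes in blue and class II genes in orange. Peaks at Psmb9 and Tap1, Psmb8 and Tap2 reach 11.0, the H2-Ab1 peaks reach 9.09, and H2-Eb1 and H2-Eb2 have no TSS peak.

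The class I genes of this stretch are flanked by class II genes on both sides. The H2-Ab1 TSS peak common to the libraries was the strongest at any class II gene plotted with the exception of H2-DMa, whose peak at the Brd2 start lies beyond the left edge of the plot. H2-Eb1 and H2-Eb2, which encode further class II β chains, had no TSS peak in any library.

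Of 11 further genes for proteins that act on these promoters, 10 had a TSS peak in all 3 libraries, against 43.9% of all genes, with medians over the list of 13.7, 12.6 and 16.7. The NF-Y subunit genes Nfyc (60.1, 52.3 and 52.3) and Nfya (39.1, 28.8 and 47.0) and the RFX subunit gene Rfx5 (16.4, 17.5 and 29.9) had the highest values, although the Nfya peak window also holds the start of Oard1. The Nfyc value was the highest fold enrichment called in each of the 3 libraries. Irf8, a factor of monocyte and dendritic cell development, had no TSS peak in any library.

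Interferon receptor signalling genes had TSS peaks in all 3 libraries in 9 of 9 cases, against 43.9% of all genes, with medians of 7.76, 10.4 and 11.7, beside 9.07, 9.26 and 10.7 for all genes with a TSS peak. The receptor-associated kinase genes Jak1 (25.5, 23.6 and 29.2) and Jak2 (13.5, 13.1 and 14.6) and the receptor gene Ifnar2 (19.7, 16.1 and 18.5) had the highest values. Of 4 co-stimulation genes, whose products give T cells the second signal beside the MHC, Cd80 had a TSS peak in all 3 libraries (10.1, 11.3 and 7.62) and Cd86, Cd40 and Icosl had none.

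**Figure D4:**
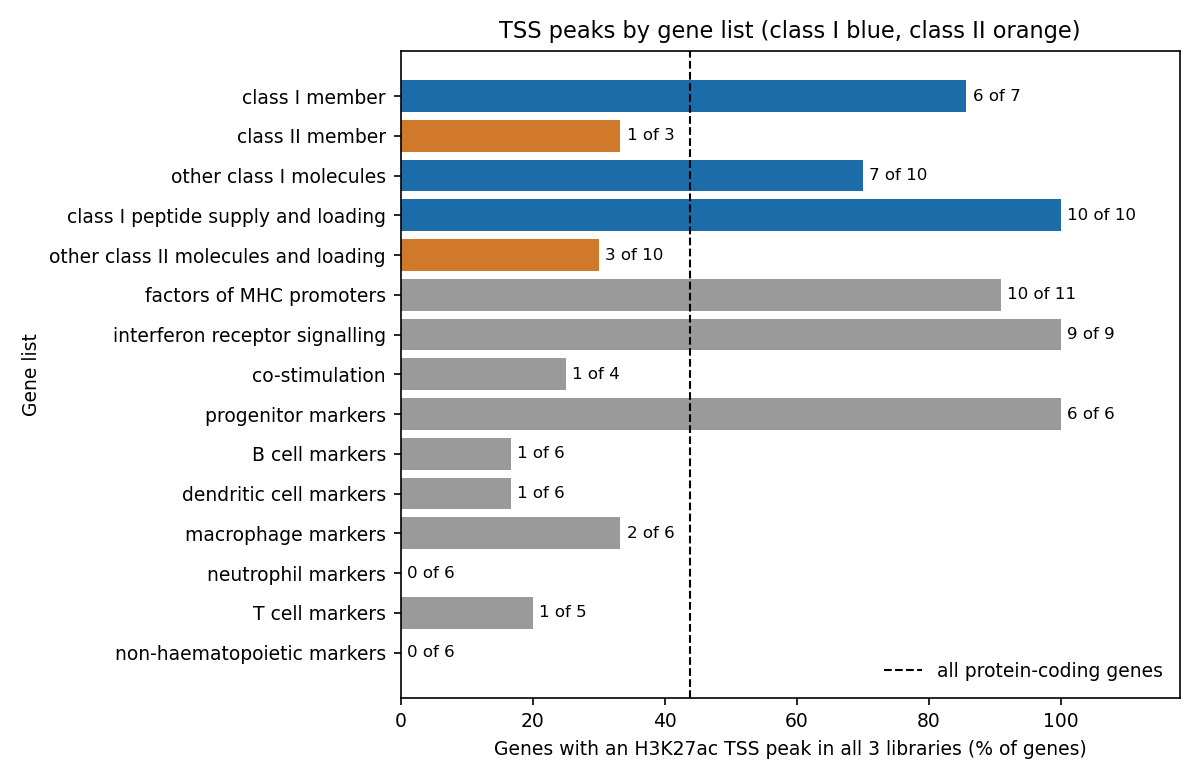
Share of genes with an H3K27ac TSS peak in all 3 libraries (x axis, percent of genes found) for each gene list (y axis), with the count beside each bar and a dashed line at the 43.9% of all protein-coding genes. The class I lists lie between 70.0% and 100%, and the class II lists at 33.3% and 30.0%.

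The sorted population was checked against markers of KL cells and of cells that carry class II molecules. Of 6 progenitor markers (Kit, Gata2, Myb, Runx1, Spi1 and Cebpa), 6 had a TSS peak in all 3 libraries, against 43.9% of all genes. Their medians were 7.15, 6.50 and 8.26. Of 6 B cell markers, Cd79b alone had one in all 3 libraries (5.12, 5.29 and 7.15), and Cd79a, Ms4a1, Pax5, Ebf1 and Blnk had none. Of 6 dendritic cell markers, Itgax had one in all 3 libraries (4.63, 3.24 and 4.23), Xcr1 in replicate 2 (3.82), and Zbtb46, Clec9a, Siglech and Batf3 had none. Of 6 macrophage markers, Csf1r (4.78, 4.30 and 4.67) and Cd163 (5.44, 5.23 and 4.43) had one in all 3, and Adgre1, Mertk, C1qa and Marco had none. The macrophage share, 33.3%, equalled that of the 3 class II genes and was not far below the 43.9% of all genes.

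Other lineages gave few TSS peaks in lists of 5 or 6 genes, beside 43.9% of all genes with one in all 3 libraries. Of 6 neutrophil markers, Ngp had one in replicate 2 (5.29) and the other 5 had none. Of 5 T cell markers found, Cd3d had one in all 3 libraries (5.44, 6.25 and 7.37). None of 6 non-haematopoietic markers had a TSS peak in any library. Whether cells of another type contributed to the H2-Ab1 peak was not tested.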

How the data were processed

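H3K27ac ChIP-seq peak lists of 3 BcorΔE9-10 KL libraries were used. The authors trimmed reads with cutadapt (1.7, per the submitters' processing notes), used bowtie2 to align them to GRCm38, discarded duplicate reads and ran MACS2 (2.1.1) on each library separately. The control and the caller's settings were not given in the sources used here. The solved background was the same in replicates 2 and 3 at several of the genes, such as 4.00 fragments at Tap1 and 3.00 at Tapbp. Whether the libraries shared a control, which would leave their fold enrichments not fully independent of each other, was not tested. The deposited lists hold a fold enrichment (the ratio of summit fragments to the caller's background), the −log10 of the p-value, the −log10 of the q-value, a summit position and a score for each summit. The deposited score is a rescaled −log10 q-value and was not used.

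Rows repeating an interval were taken as 1 peak with its highest fold. Peaks of the 19 autosomes and the sex chromosomes were joined to GENCODE M21 transcripts, and a gene's TSS fold was that of its strongest peak within 2.5 kb of any of its TSSs. Percentiles were taken among genes with a TSS peak. Fragments at a summit, library depth and exact Poisson 95% intervals, which cover counting error only, were obtained by solving the caller's fold and p-value for the fragment number, which succeeded for 100% of rows. That solution takes fragments of 200 bp, the shortest peak in each list. In replicate 3 it required the ChIP fragments to be scaled by 0.983.

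All 10 genes are named, with up to 3 of the highest genes of each further list, every gene of those lists with a peak in 1 or 2 libraries, every marker with a peak, and genes starting at a shared peak. Genes and lists were chosen with earlier results of these data known. Genes without a TSS peak entered ratios at the lowest fold called in that library. Classes were compared by exact sign-flip permutation over libraries, two-sided. Genes are not replicates and no p-value was computed over them. The joining and solving steps were tested on simulated data. Python 3.11.15, pandas 2.3.3, scipy 1.17.1 and biopython 1.88 (global alignment of promoters with free end gaps) were used.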

Additional observations from a re-analysis of the deposited data

How the results depend on the processing

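The class I share of genes with a TSS peak exceeded the class II share under each setting tried, by 46.4 to 84.1 percentage points. The class I over class II ratio of medians stayed above 1. Where the median class II gene had no TSS peak it stood at the lowest fold called, so there the ratio could not fall below 1. The settings were TSS windows of 1 and 5 kb, a −log10 q of at least 5, protein-coding transcripts only, the closest TSS only, a summit inside the window, omission of shared peaks or of the 2 transactivator genes, and the added lists. Leaving out each replicate in turn gave differences of 59.5 to 66.7 points, ratios of 5.66 to 5.98, 6 to 7 class I genes and 1 class II gene with a TSS peak in every library kept. The number of class II genes with a TSS peak in all 3 libraries fell from 1 to 0 with a 1 kb window and, in a setting chosen after seeing the data, to 0 within 1 kb of a principal TSS, because the common H2-Ab1 peak lies further downstream. In that last setting 5 class I genes kept a peak in all 3 libraries, Tap2 losing it in replicate 1. Also chosen after seeing the data, omission of H2-K1 and H2-D1 gave a difference of 60.0 points and a ratio of 4.94. Among single genes, Tap2 rose to 9.23 with a 5 kb window, which takes in the Psmb8 peak, and Tap1 fell to 6.32 with the closest TSS only. No test could pass a threshold of 0.05 with 3 libraries. No paired analysis was possible because there was 1 group of libraries. At an estimated depth of 18.0 to 19.3 M reads, calls were limited to summits of at least 8 or 9 fragments.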
